A study of Mus musculus with 8 samples.

Results

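The genes described here are 10 members of the MHC class I antigen presentation pathway: the heavy chains H2-K1, H2-D1 and H2-T23, the light chain B2m, the peptide transporter and loading genes Tap1, Tap2 and Tapbp, and the immunoproteasome subunits Psmb8, Psmb9 and Psmb10. They were chosen by symbol, as the rows of the count tables that carry these names, and are 10 of 24411 genes. All 10 passed the filter on low counts, which left 12517 genes to test.

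The cells were A223, a squamous cell carcinoma line of the mouse, and their polyadenylated RNA was sequenced. The 4 groups, with 2 libraries each, were PRDX6 knockdown (KD) cells with 100 nM largazole sampled at 18 h, KD cells with DMSO sampled at 0 h, parental cells with largazole at the same dose and time, and parental cells with DMSO at 0 h. Largazole inhibits class I histone deacetylases, and PRDX6 is a peroxiredoxin that reduces lipid and hydrogen peroxides. Drug and elapsed time changed together, so an effect of one cannot be told apart from an effect of the other. The labels do not give the knockdown method, the number of clones or a line with a control construct, and the file headers call the parental cells WT. They also do not say that replicates came from separate cultures, and the p-values reflect only how far these libraries spread, which may be technical.

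MHC class I molecules carry peptides from inside the cell to its surface, where CD8 T cells and natural killer cells read them. The proteasome cuts proteins to peptides, and interferon exchanges its constitutive catalytic subunits for the immunoproteasome subunits PSMB8, PSMB9 and PSMB10. TAP1 and TAP2 form the transporter that moves peptides into the endoplasmic reticulum, and tapasin, the product of Tapbp, bridges it to the heavy chain, which pairs with beta-2-microglobulin. H2-K1 and H2-D1 are classical heavy chains. H2-T23 encodes Qa-1, a nonclassical heavy chain that presents signal peptides of other class I chains to the NKG2A receptor. Tumours often lower these genes, and their transcription is known to depend on NLRC5, on interferon through STAT and IRF factors, and on NF-kappaB.

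In these data the genes did not move as a block. Under largazole the classical and nonclassical heavy chains, Tap2, Tapbp and Psmb9 rose in both genotypes, while Tap1 and Psmb10 fell. In KD cells H2-T23, Tap1, Tap2, Tapbp, Psmb8 and Psmb10 were higher than in parental cells, with and without the drug. H2-K1, H2-D1, B2m and Psmb9 passed in neither KD comparison.

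Of the 10 genes, 8 lie on chromosome 17 in the mm10 build. Psmb9, Tap1, Psmb8 and Tap2 follow each other there from 34181987 to 34216321, a block of 34.3 kb. Tapbp spans 33915899 to 33929292, H2-K1 33996017 to 34000347, H2-D1 35262730 to 35267499 and H2-T23 36029773 to 36032855 on the same chromosome. B2m lies on chromosome 2 from 122147686 to 122153083, and Psmb10 on chromosome 8 from 105935735 to 105938444. All 10 are protein-coding genes of the GENCODE M21 annotation.

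The promoter sequences are shown because the genes fell into groups by response, and the window before the start of a class I gene is known to hold an enhancer with NF-kappaB and interferon elements and the SXY module, through which NLRC5 acts. RefSeq windows on GRCm38.p6 were at hand for 9 of the 10 genes, and Tap2 had no entry. Each window ran from 250 bases before to 50 bases after a RefSeq start, 300 bases in all. The bases before the start are given below only for the heavy chains and B2m. Capitals mark the kappaB-like palindrome GGGNNNNNCCC, the interferon regulatory factor core AANNGAAA on either strand, and the letters TGACG and ATTGG of the X2 and Y boxes where 20 bases stand between them. That spacing was taken from the H2-K1 window after it had been read, so its presence there is no finding.
H2-K1, chr17:34000348-34000597, minus strand: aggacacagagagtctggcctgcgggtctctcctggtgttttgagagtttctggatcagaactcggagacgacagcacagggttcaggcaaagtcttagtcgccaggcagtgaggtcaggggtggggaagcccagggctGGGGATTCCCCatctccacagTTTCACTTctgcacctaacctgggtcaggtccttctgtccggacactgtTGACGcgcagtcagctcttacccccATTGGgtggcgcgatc
H2-D1, chr17:35262844-35263093, plus strand: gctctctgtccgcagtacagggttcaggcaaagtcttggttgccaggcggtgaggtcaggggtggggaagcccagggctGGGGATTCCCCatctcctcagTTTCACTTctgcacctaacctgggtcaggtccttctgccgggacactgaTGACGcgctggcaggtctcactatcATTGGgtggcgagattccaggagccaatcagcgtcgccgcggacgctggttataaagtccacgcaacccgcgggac
B2m, chr2:122147437-122147686, plus strand: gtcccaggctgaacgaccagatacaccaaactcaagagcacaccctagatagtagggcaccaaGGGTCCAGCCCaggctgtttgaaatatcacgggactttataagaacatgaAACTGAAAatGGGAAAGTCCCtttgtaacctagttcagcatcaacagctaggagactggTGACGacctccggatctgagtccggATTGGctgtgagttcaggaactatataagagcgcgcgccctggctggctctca
H2-T23, chr17:36032702-36032951, minus strand: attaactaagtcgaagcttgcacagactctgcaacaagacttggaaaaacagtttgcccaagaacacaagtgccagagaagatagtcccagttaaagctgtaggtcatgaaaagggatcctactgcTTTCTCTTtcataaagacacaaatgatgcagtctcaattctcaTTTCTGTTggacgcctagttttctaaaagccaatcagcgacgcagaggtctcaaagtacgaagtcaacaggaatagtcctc

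Among the 9 windows the spaced letters TGACGNNNNNNNNNNNNNNNNNNNNATTGG were found in 3, those of H2-K1, H2-D1 and B2m. Over all promoters they were found in 31 of 32851 windows, or 0.0944%, which belong to 27 gene symbols. AANNGAAA was found in H2-K1, H2-D1, B2m and H2-T23, against 23.9% of all windows, and its longer form GAAANNGAAA in B2m and H2-T23, against 3.44% of all windows. GGGNNNNNCCC was found in H2-K1, H2-D1, B2m, Tap1 and Psmb9, against 14% of all windows. The Tap1 and Psmb9 windows overlap, and their matches are the same site read on opposite strands. Aligned end to end, the whole H2-K1 and H2-D1 windows were 59.3% identical. Their RefSeq starts put the windows out of register, with the kappaB-like match at -111 in H2-K1 and -171 in H2-D1. The percentage thus includes ends that the windows do not share, and it does not measure the likeness of the stretch that they do share. Searches covered both strands, a match of AANNGAAA may lie inside one of GAAANNGAAA, and a match describes letters and not a bound site.

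Tap1 and Psmb9 start in opposite directions with 225 bases between their RefSeq starts. That interval is shown because its genes moved in opposite directions under largazole, with TGACG, the reverse of ATTGG and the kappaB-like palindrome in capitals.
Psmb9 to Tap1 interval, chr17:34187331-34187555, plus strand: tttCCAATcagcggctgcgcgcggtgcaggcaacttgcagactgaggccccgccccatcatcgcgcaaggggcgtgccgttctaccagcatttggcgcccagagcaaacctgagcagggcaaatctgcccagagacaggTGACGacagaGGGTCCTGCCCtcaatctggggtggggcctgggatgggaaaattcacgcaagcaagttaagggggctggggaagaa

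Levels below are CPM, counts scaled to a common library total by TMM, and levels of different genes are compared only as CPM per kb of the union of a gene's exons. The libraries held 13020492 to 15613216 estimated counts each. Prdx6 had 81.1 and 64.9 CPM in KD largazole and 86.6 and 79.2 CPM in KD DMSO libraries, against 257 and 233 CPM in parental largazole and 297 and 283 CPM in parental DMSO libraries, as the genotype labels say. Of 12 squamous epithelium markers, Krt5, Krt6a, Krt17, Trp63 and Cdh1 stayed under 1 CPM in all 8 libraries, Krt14 and Epcam under 4 CPM, and Krt8 lay between 1006 and 2267 CPM. The summed squamous markers of KD libraries were 1971 and 1768 CPM with largazole against 2735 and 2658 CPM without it, and those of parental libraries 1708 and 1624 CPM with it against 2626 and 2486 CPM without. Summed leukocyte and antigen-presenting cell markers were 51.9 and 44.9 CPM in KD largazole, 4.87 and 5.01 CPM in KD DMSO, 65.9 and 65.2 CPM in parental largazole and 4.14 and 5.2 CPM in parental DMSO libraries, nearly all of it Cd68. The leukocyte markers Cd3e, Cd8a, Adgre1 and Ncr1 had no count in any library, and Ptprc at most 0.857 CPM. Summed fibroblast markers were 4377 and 5042 CPM in KD largazole and 5089 and 5169 CPM in KD DMSO, against 3522 and 3589 CPM in parental largazole and 3578 and 3567 CPM in parental DMSO libraries, with at least 6 of 7 markers detected in each library. Summed endothelium markers lay between 4.42 and 7.97 CPM. Cd68 and the squamous sum thus moved with the drug, and the fibroblast sum with the genotype. Krt8 made up most of the squamous sum and, with Itga6, was lower under largazole in both genotypes. Krt18 and Itgb4 were higher under largazole in both, as were the scarce Krt14, Epcam, Trp63 and Cdh1. Among fibroblast markers Col3a1, Pdgfra and Pdgfrb were lower under largazole in both genotypes, and Col1a1 was higher. The part of these markers in the results was not tested. In bulk RNA, fewer cells of a type and less RNA per cell cannot be told apart.

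Replicates stood furthest apart in KD largazole cells, where the SD over genes of the log2 difference between them was 0.359, against 0.207 in KD DMSO, 0.218 in parental largazole and 0.194 in parental DMSO cells. Rn45s, the ribosomal RNA precursor, had 23915 and 742 CPM in KD largazole and 9963 and 2549 CPM in KD DMSO, against 7739 and 950 CPM in parental largazole and 1353 and 1212 CPM in parental DMSO libraries. All 10 class I genes were higher in replicate 1 than in replicate 2 in KD largazole, with a median ratio of 1.24, and in KD DMSO, with a median ratio of 1.26. In parental cells 7 of 10 were higher in replicate 1 under largazole, with a median ratio of 1.01, and 3 of 10 in DMSO, with a median ratio of 0.974. The part of this in the results was not tested.

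B2m was the most abundant of the genes per kb of exon, at 1721 CPM per kb in KD largazole, 1442 in KD DMSO, 1272 in parental largazole and 1253 in parental DMSO cells. H2-D1 followed with means of 400, 239, 358 and 225 CPM per kb in the same order of groups, and H2-K1 with 190, 110, 183 and 101 CPM per kb. Tapbp had means of 64.3, 44.9, 37.6 and 24.2 CPM per kb. The transporter chains, H2-T23 and the immunoproteasome subunits were lower, and Psmb9 was lowest, at 1.55, 0.794, 1.04 and 0.432 CPM per kb. The order of the 4 most abundant genes was the same in each group.

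**Figure D1:**
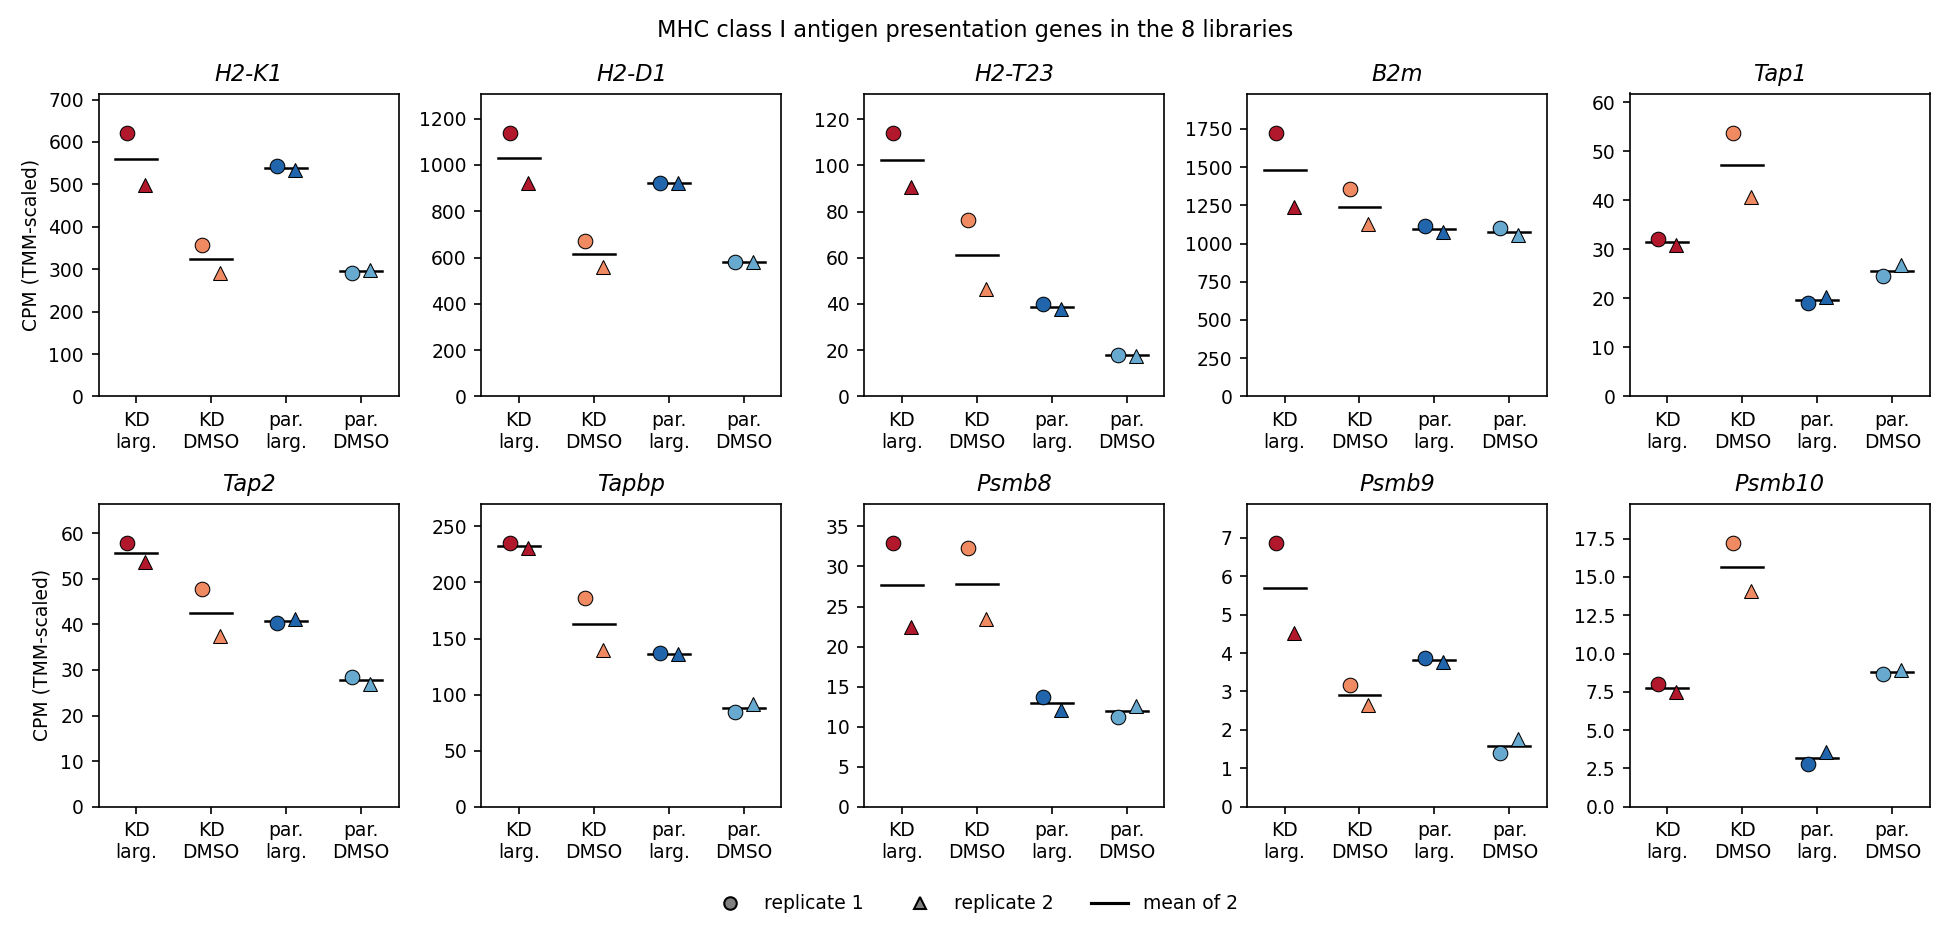
CPM of the 10 class I genes (vertical axes, linear, from 0) in each library of the 4 groups (horizontal axes: KD largazole, KD DMSO, parental largazole, parental DMSO). Circles are replicate 1, triangles replicate 2 and bars the mean of 2. H2-K1 and H2-D1 separate by drug, Psmb8 by genotype, and H2-T23, Tap2 and Tapbp by both.

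For the effect of largazole, 6 of the 10 genes were higher and 2 lower than in DMSO in KD cells, and the same 6 and 2 genes in parental cells. In KD cells 24.6% of the 12517 tested genes were called higher and 23.1% lower, and in parental cells 26.8% and 22.6%. The median log2 fold change of the 10 genes was 0.45 in KD cells and 0.60 in parental cells, beside 0.010 and 0.029 over all tested genes. Adjusted p is that of edgeR's two-sided quasi-likelihood F test with Benjamini-Hochberg adjustment over all tested genes and a threshold of 0.05, and errors of log2 fold changes are standard errors.

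For the effect of the knockdown, 6 of the 10 genes were called higher under largazole, where 8.12% of all tested genes were called higher and 9.67% lower. In DMSO 6 of the 10, the same genes, were called higher, where 7.11% of all tested genes were called higher and 4.01% lower. Each of the 10 log2 fold changes was positive in both conditions, with a median of 0.62 under largazole and 0.86 in DMSO, beside -0.003 and 0.000 over all tested genes. In DMSO the count fell to 2 or 4 when parental DMSO replicate 1 or replicate 2 was left out, was 3 when KD DMSO replicate 1 was left out, and grew to 8 when KD largazole replicate 1 was. Under largazole it was 4 or 3 when parental largazole replicate 1 or replicate 2 was left out and 9 when KD largazole replicate 2 was. The count for largazole in KD cells was 5 without KD DMSO replicate 2. The drug comparisons and the knockdown comparisons share libraries.

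**Figure D2:**
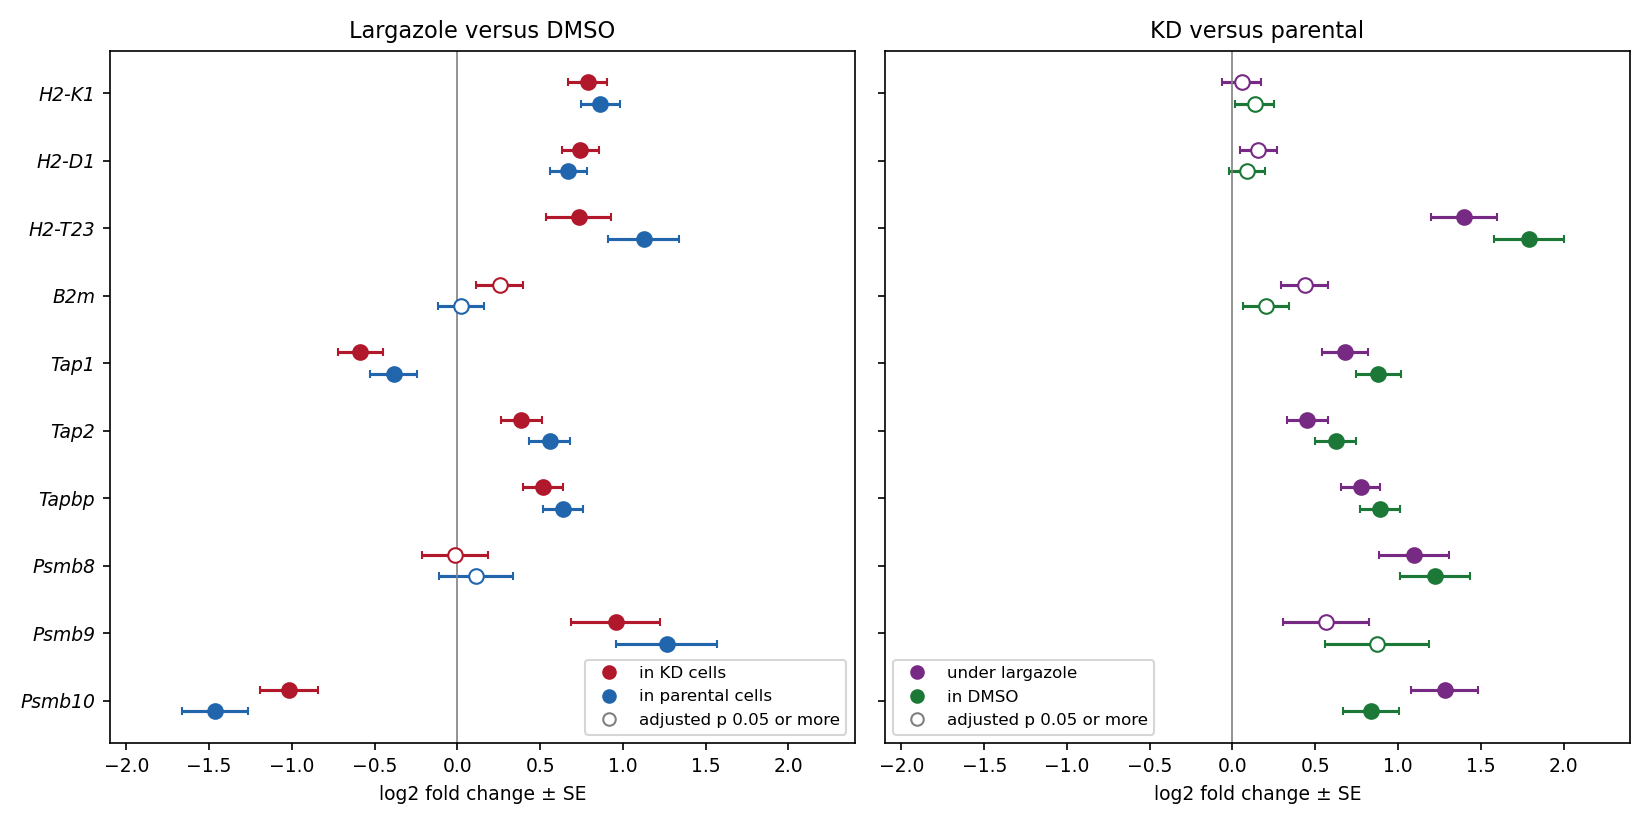
Log2 fold change ± SE (horizontal axes) of each class I gene for largazole over DMSO in KD and parental cells (left) and for KD over parental cells under largazole and in DMSO (right). Filled points passed an adjusted p of 0.05 (edgeR, n = 2 libraries per group). Psmb10 and Tap1 lie left of 0 for largazole and right of 0 for KD.

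The classical heavy chains followed the drug. H2-K1 had 621 and 499 CPM in KD largazole libraries against 358 and 291 CPM in KD DMSO libraries, and 544 and 533 CPM in parental largazole against 292 and 299 CPM in parental DMSO libraries. Each largazole library was above each DMSO library of either genotype. The log2 fold change for largazole was 0.79 ± 0.12 in KD cells (edgeR adjusted p = 0.000417) and 0.86 ± 0.12 in parental cells (edgeR adjusted p = 0.000226). For KD over parental cells it was 0.06 ± 0.12 under largazole (edgeR adjusted p = 0.796) and 0.13 ± 0.12 in DMSO (edgeR adjusted p = 0.547), and the 2 genotypes overlapped in DMSO and under largazole.

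H2-D1 had 1138 and 923 CPM in KD largazole libraries against 672 and 560 CPM in KD DMSO libraries, and 924 and 924 CPM in parental largazole against 579 and 581 CPM in parental DMSO libraries. Its largazole and DMSO libraries did not overlap, and its genotypes did. Under largazole its log2 fold change was 0.74 ± 0.11 in KD cells (edgeR adjusted p = 0.000406) and 0.67 ± 0.11 in parental cells (edgeR adjusted p = 0.00074). The KD log2 fold change was 0.16 ± 0.11 under largazole (edgeR adjusted p = 0.369) and 0.09 ± 0.11 in DMSO (edgeR adjusted p = 0.699). The KD change under largazole was 0.30 without KD largazole replicate 2, where it passed. H2-D1 was the only one of the 10 genes with fractional values, shared with its close copy H2-L, which held between 0 and 0.217% of their summed counts. Class I heavy chains differ between mouse strains, the labels do not give the strain of A223, and the effect of mapping to mm10 on the heavy chain levels was not tested.

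H2-T23, the nonclassical chain, followed drug and genotype. It had 114 and 90.7 CPM in KD largazole, 76.3 and 46.5 CPM in KD DMSO, 39.8 and 37.7 CPM in parental largazole and 18.1 and 17.4 CPM in parental DMSO libraries. These 4 groups lay in this order with no overlap. Largazole gave a log2 fold change of 0.73 ± 0.19 in KD cells (edgeR adjusted p = 0.0108) and 1.12 ± 0.21 in parental cells (edgeR adjusted p = 0.00173). KD gave 1.40 ± 0.20 under largazole (edgeR adjusted p = 0.00136) and 1.79 ± 0.21 in DMSO (edgeR adjusted p = 0.000521), the largest KD effect among the 10 genes in both conditions. Without KD DMSO replicate 2 the largazole change in KD cells was 0.42 and did not pass.

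B2m, the light chain of every class I molecule, passed in none of the 4 comparisons. Its levels were 1723 and 1238 CPM in KD largazole, 1354 and 1126 CPM in KD DMSO, 1112 and 1075 CPM in parental largazole and 1099 and 1056 CPM in parental DMSO libraries. Both KD groups lay above both parental groups, and the KD largazole libraries differed from each other by more than any group means did. The KD log2 fold change was 0.44 ± 0.14 under largazole (edgeR adjusted p = 0.058) and 0.20 ± 0.14 in DMSO (edgeR adjusted p = 0.426). That for largazole was 0.26 ± 0.14 in KD cells (edgeR adjusted p = 0.16) and 0.02 ± 0.14 in parental cells (edgeR adjusted p = 0.909). Under largazole the KD difference passed with DESeq2 (log2 fold change 0.43), with no filter on low counts (0.44) and without KD largazole replicate 2 (0.66). Without KD largazole replicate 2 the largazole change in KD cells also passed (0.47), and without replicate 1 it was -0.007. The KD difference in DMSO passed with only the libraries compared (0.20) and without KD largazole replicate 1 (0.20).

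The summed level of the 3 heavy chains over that of B2m, per kb, was higher under the drug. It was 0.345 and 0.388 in KD largazole against 0.26 and 0.254 in KD DMSO libraries, and 0.431 and 0.442 in parental largazole against 0.259 and 0.271 in parental DMSO libraries. Drug and DMSO libraries did not overlap. With 2 libraries a group an exact test cannot reach 0.05, so this ratio is a description.

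The transporter chains parted under the drug. Tap1 had 32 and 30.9 CPM in KD largazole libraries against 53.7 and 40.6 CPM in KD DMSO libraries, and 19.1 and 20.2 CPM in parental largazole against 24.5 and 26.7 CPM in parental DMSO libraries. Tap1 was lower in each largazole library than in each DMSO library of its genotype, and higher in each KD library than in each parental library of its condition. Its largazole log2 fold change was -0.59 ± 0.14 in KD cells (edgeR adjusted p = 0.00528) and -0.38 ± 0.14 in parental cells (edgeR adjusted p = 0.0462). The KD change was 0.68 ± 0.14 under largazole (edgeR adjusted p = 0.00946) and 0.88 ± 0.14 in DMSO (edgeR adjusted p = 0.00264). The call in parental cells was lost with DESeq2, with library totals only and without any of the 4 parental libraries, with the log2 fold change between -0.46 and -0.32. The largazole call in KD cells was lost without KD DMSO replicate 1 (log2 fold change -0.38, edgeR adjusted p = 0.0586). The KD call was lost in DMSO without parental DMSO replicate 1 (0.81), and under largazole without parental largazole replicate 1 (0.64) or replicate 2 (0.73).

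Tap2, the other chain of the transporter, rose instead. It had 57.8 and 53.7 CPM in KD largazole libraries against 47.8 and 37.4 CPM in KD DMSO libraries, and 40.3 and 41.1 CPM in parental largazole against 28.4 and 27 CPM in parental DMSO libraries. Largazole gave a log2 fold change of 0.39 ± 0.12 in KD cells (edgeR adjusted p = 0.0249) and 0.56 ± 0.13 in parental cells (edgeR adjusted p = 0.00467), and KD gave 0.45 ± 0.12 under largazole (edgeR adjusted p = 0.03) and 0.62 ± 0.13 in DMSO (edgeR adjusted p = 0.0117). Each of these 4 calls was lost without at least 1 library that it compares. The Tap1 to Tap2 ratio per kb was 0.382 and 0.397 in KD largazole against 0.775 and 0.75 in KD DMSO libraries, and 0.327 and 0.339 in parental largazole against 0.597 and 0.682 in parental DMSO libraries. It was lower under largazole in each genotype, with no overlap.

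Tapbp, which encodes tapasin, rose with drug and with knockdown. It had 235 and 231 CPM in KD largazole, 186 and 140 CPM in KD DMSO, 137 and 136 CPM in parental largazole and 84.3 and 91.4 CPM in parental DMSO libraries. The 4 groups did not overlap. Largazole gave a log2 fold change of 0.52 ± 0.12 in KD cells (edgeR adjusted p = 0.00509) and 0.64 ± 0.12 in parental cells (edgeR adjusted p = 0.00175), and KD gave 0.77 ± 0.12 under largazole (edgeR adjusted p = 0.00202) and 0.89 ± 0.12 in DMSO (edgeR adjusted p = 0.00117). These 4 calls held under every alternative run. Tapbp shares 904 exon bases with Gm19412 on the opposite strand and 149 with Zbtb22 on its own strand, and Tap2 shares 533 with Gm15821 on the opposite strand.

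The 3 immunoproteasome subunits each had another pattern. Psmb8 followed the genotype, with 32.9 and 22.5 CPM in KD largazole and 32.3 and 23.4 CPM in KD DMSO, against 13.7 and 12.1 CPM in parental largazole and 11.2 and 12.6 CPM in parental DMSO libraries. Each KD library was above each parental library. The KD log2 fold change was 1.10 ± 0.21 under largazole (edgeR adjusted p = 0.00641) and 1.22 ± 0.21 in DMSO (edgeR adjusted p = 0.00524). For largazole it was -0.02 ± 0.20 in KD cells (edgeR adjusted p = 0.957) and 0.11 ± 0.23 in parental cells (edgeR adjusted p = 0.701). The KD call was lost in DMSO when replicate 1 of either group was left out, and under largazole when parental largazole replicate 2 was. Psmb8 shares 498 exon bases with Gm20496 on the opposite strand.

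Psmb9 passed for the drug in both genotypes and for the knockdown in neither condition, and was the least abundant of the 10 genes. It had 88 and 67 counts in KD largazole libraries against 48 and 36 counts in KD DMSO libraries, and 57 and 57 counts in parental largazole against 19 and 26 counts in parental DMSO libraries. These are 6.86 and 4.52, 3.16 and 2.65, 3.88 and 3.76, and 1.4 and 1.75 CPM in the same order. Largazole gave a log2 fold change of 0.96 ± 0.27 in KD cells (edgeR adjusted p = 0.0148) and 1.26 ± 0.30 in parental cells (edgeR adjusted p = 0.00644). For KD the change was 0.57 ± 0.26 under largazole (edgeR adjusted p = 0.169) and 0.87 ± 0.31 in DMSO (edgeR adjusted p = 0.111), although KD and parental libraries did not overlap in either condition. The KD change in DMSO passed without KD largazole replicate 1 (0.875) or replicate 2 (0.865). Under largazole it passed without KD largazole replicate 2 (0.846). The largazole call was lost in KD cells when KD DMSO replicate 2 or KD largazole replicate 1 was left out, and in parental cells when parental DMSO replicate 1 was.

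Psmb10 fell with the drug and rose with the knockdown. It had 8.03 and 7.48 CPM in KD largazole libraries against 17.2 and 14.1 CPM in KD DMSO libraries, and 2.79 and 3.56 CPM in parental largazole against 8.65 and 8.91 CPM in parental DMSO libraries. KD largazole libraries thus lay just under the parental DMSO libraries. The largazole log2 fold change was -1.02 ± 0.17 in KD cells (edgeR adjusted p = 0.000955) and -1.46 ± 0.20 in parental cells (edgeR adjusted p = 0.000224), the largest drug effect among the 10 genes in either genotype. KD gave 1.28 ± 0.20 under largazole (edgeR adjusted p = 0.00225) and 0.84 ± 0.17 in DMSO (edgeR adjusted p = 0.0124). The call in DMSO was lost without KD DMSO replicate 1 or either parental DMSO library.

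Psmb9 and Tap1, the divergent neighbours, moved in opposite directions under largazole in both genotypes. Psmb9 over Tap1 per kb was 0.321 and 0.219 in KD largazole against 0.0881 and 0.0978 in KD DMSO libraries, and 0.305 and 0.279 in parental largazole against 0.0856 and 0.0985 in parental DMSO libraries. Every drug library was above every DMSO library. In GENCODE M21 they share 212 exon bases on opposite strands. The kit kept strand, but the strand setting of the counting is not given in the sources used here, and without strand the reads that overlapping genes share cannot be told apart.

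The constitutive catalytic subunits Psmb5, Psmb6 and Psmb7, which the immunoproteasome subunits replace, passed in none of the 5 comparisons (edgeR, 0 of 3, and 0 at an unadjusted p under 0.05 and with DESeq2). Psmb6 had 137 and 95.3 CPM in KD largazole, 98.6 and 96.1 CPM in KD DMSO, 114 and 106 CPM in parental largazole and 92.4 and 93.7 CPM in parental DMSO libraries, and the other two lay as close. The summed immunoproteasome subunits over the summed constitutive ones, per kb, gave 0.0641 and 0.0655 in KD largazole against 0.1 and 0.0809 in KD DMSO libraries, and 0.0318 and 0.0334 in parental largazole against 0.0454 and 0.0469 in parental DMSO libraries. The ratio was lower with drug and higher with knockdown, with no overlap between groups. The 3 genes in its numerator differed in direction under the drug, and each had a positive log2 fold change with knockdown.

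**Figure D3:**
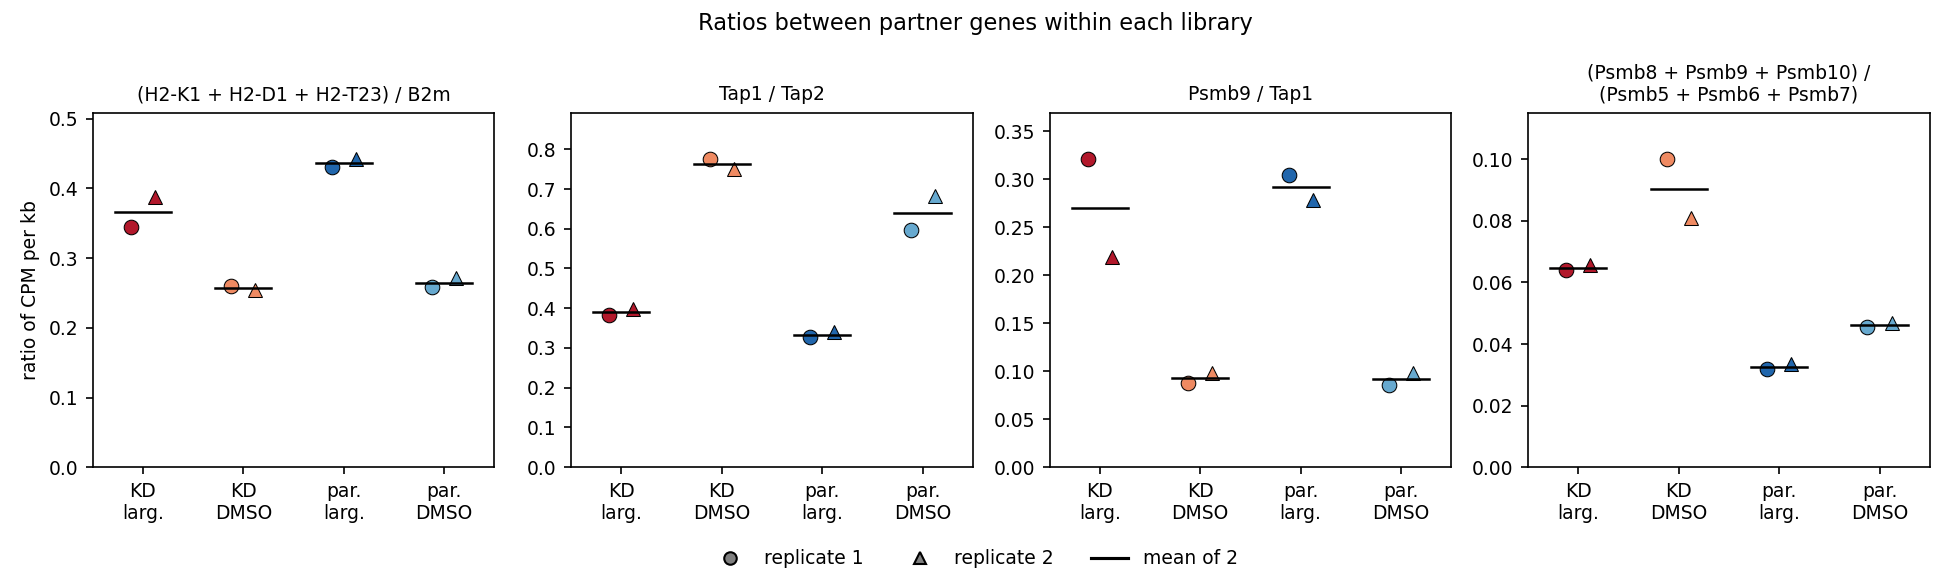
Ratios of CPM per kb (vertical axes, linear, from 0) within each library for heavy chains over B2m, Tap1 over Tap2, Psmb9 over Tap1 and immunoproteasome over constitutive catalytic subunits, by group (horizontal axes). Circles are replicate 1, triangles replicate 2 and bars the mean of 2; largazole and DMSO libraries of a genotype separate in each panel.

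No class I gene passed the test of a difference between genotypes in its response to largazole. The count was 0 of 10 with edgeR's test of the difference, where 0.232% of all 12517 tested genes were called. It was also 0 at an unadjusted p under 0.05, where 1089 of all tested genes passed, and 0 with DESeq2, where 84 were called. The largest differences were 0.45 ± 0.27 for Psmb10 (edgeR adjusted p = 0.733) and -0.39 ± 0.29 for H2-T23 (edgeR adjusted p = 0.808), each as KD minus parental. Without KD largazole replicate 2, B2m passed with a difference of 0.46.

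Profiles over the 8 libraries were set side by side by the root mean square distance of log2 CPM, each gene centred on its own mean. H2-K1 and H2-D1 were the closest pair among the 10 genes, 0.073 apart, and Psmb9 and Psmb10 the farthest, 1.180 apart. Tap1 and Psmb9 were 0.784 apart, and Tap2 and Tapbp 0.167. Among 10174 other genes of at least 5 CPM, those nearest to H2-K1 were Arhgef19 (0.039), Ctsd (0.053) and Coq9 (0.054), and those nearest to B2m were Ubb (0.056), Dynlrb1 (0.061) and Chmp4b (0.062). Nearest to Tap1 were Pdpn (0.128), Cd200 (0.132) and Olfml3 (0.134). Nearest to Psmb8 were Ly6a (0.110), Tmem45a (0.131) and Gm6548 (0.138).

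Of 30 other genes of the class I pathway 23 were tested. Largazole called 6 higher and 8 lower in KD cells, with a median log2 fold change of 0.16, and 6 higher and 4 lower in parental cells, with a median of 0.17. Over all tested genes 24.6% were called higher and 23.1% lower in KD cells and 26.8% and 22.6% in parental cells, so the 6 called higher were near that share. KD called 8 higher and 5 lower under largazole, with a median of 0.31, and 5 higher and 3 lower in DMSO, with a median of 0.21, where 8.12% of all tested genes were called higher and 9.67% lower under largazole and 7.11% and 4.01% in DMSO. The medians over all tested genes are those given above.

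Nonclassical chains and class I-like molecules made up most of those that rose. H2-T22 had 99.4 and 75.9 CPM in KD largazole, 72 and 52.5 CPM in KD DMSO, 58.2 and 61.8 CPM in parental largazole and 26.4 and 29.1 CPM in parental DMSO libraries, and passed in all 4 comparisons, as did H2-T9. H2-T9 and H2-T22 are near-identical copies between which reads were split, H2-T9 holding 47.2 to 57.4% of their sum, so their separate levels are uncertain. Fcgrt, the heavy chain of the neonatal Fc receptor, also passed in all 4, with 41.4 and 34.1 CPM in KD largazole, 24.6 and 21.8 CPM in KD DMSO, 26.3 and 24.1 CPM in parental largazole and 10.8 and 11.3 CPM in parental DMSO libraries. Hfe, which regulates iron uptake, rose in all 4 as well. For KD under largazole the calls of H2-T22, H2-T9, Fcgrt and Hfe were each lost without either parental largazole library. That of H2-T22 was also lost without either parental DMSO library and without KD largazole replicate 1. Fitting only the libraries compared lost those of H2-T22 and Fcgrt, and H2-T22 for largazole in KD cells as well. For KD in DMSO the H2-T9 call was lost without parental DMSO replicate 2 (log2 fold change 0.696) or KD DMSO replicate 1 (0.582). Hfe was lost there without the same libraries (1.546 and 1.501). For largazole in KD cells H2-T22 was lost without KD DMSO replicate 2 (log2 fold change 0.28) or KD largazole replicate 1 (0.28), and Hfe without KD DMSO replicate 2 (0.68) and with DESeq2 (0.82). H2-T24, another nonclassical chain, had 22 and 34 counts in KD largazole and 14 and 4 counts in KD DMSO libraries. In parental libraries it had 4 and 1 counts with largazole and 0 and 1 counts in DMSO. It passed the filter on low counts only through the KD largazole libraries, and was called higher there than in KD DMSO and in parental largazole libraries. The call for largazole in KD cells was lost with DESeq2 and without replicate 2 of KD DMSO (log2 fold change 1.12) or KD largazole (1.447). That for KD under largazole was lost without parental largazole replicate 2 (2.86).

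Cd1d1, which presents lipids, followed the genotype. It had 5.38 and 4.45 CPM in KD largazole and 7.11 and 6.56 CPM in KD DMSO, against 2.04 and 1.91 CPM in parental largazole and 2.07 and 2.23 CPM in parental DMSO libraries. The KD log2 fold change was 1.31 ± 0.24 under largazole (edgeR adjusted p = 0.00474) and 1.67 ± 0.23 in DMSO (edgeR adjusted p = 0.00124). Mr1, which presents vitamin B metabolites, rose under largazole by 1.33 ± 0.18 in KD cells (edgeR adjusted p = 0.000183) and 1.38 ± 0.19 in parental cells (edgeR adjusted p = 0.000227). It was also called higher in KD than in parental cells under largazole, a call lost without any 1 of the 4 parental libraries.

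Some pathway genes fell where the classical heavy chains rose. Erap1, the aminopeptidase that trims peptides in the endoplasmic reticulum, had 14.3 and 15.9 CPM in KD largazole libraries against 33.5 and 35 CPM in KD DMSO libraries, and 9.81 and 8.96 CPM in parental largazole against 29.1 and 25.4 CPM in parental DMSO libraries. Its largazole log2 fold change was -1.18 ± 0.13 in KD cells (edgeR adjusted p = 5.33e-05) and -1.54 ± 0.13 in parental cells (edgeR adjusted p = 1.3e-05). H2-Q4, a nonclassical chain, had 26.3 and 19.3 CPM in KD largazole libraries against 65.4 and 51 CPM in KD DMSO libraries, and 17.4 and 19.5 CPM in parental largazole against 48.1 and 52.4 CPM in parental DMSO libraries. Tapbpl, a tapasin relative that edits peptides, also fell in both genotypes, as did the cytosolic peptidase Tpp2. The Tapbpl call was lost in KD cells with DESeq2 and without either KD DMSO library or KD largazole replicate 2. In parental cells it was lost without parental DMSO replicate 1. The Tpp2 call in parental cells was lost with library totals and when each parental or KD DMSO library was left out in turn. In KD cells it was lost with library totals, with only the libraries compared and without KD DMSO replicate 2. Erap1 was called higher in KD than in parental cells under largazole.

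The chaperones of the loading complex were lower in KD cells. Calr, or calreticulin, had 1099 and 941 CPM in KD largazole libraries, against 2734 and 2604 CPM in parental largazole libraries, and 1443 and 1393 CPM in KD DMSO against 2223 and 2071 CPM in parental DMSO libraries. Pdia3, the disulfide isomerase ERp57, had 914 and 790 CPM in KD largazole libraries, against 1693 and 1696 CPM in parental largazole libraries, and 1362 and 1331 CPM in KD DMSO against 1957 and 1921 CPM in parental DMSO libraries. The KD log2 fold change of Pdia3 was -0.99 ± 0.09 under largazole (edgeR adjusted p = 9.54e-05) and -0.53 ± 0.08 in DMSO (edgeR adjusted p = 0.00309). Canx, or calnexin, also fell in both conditions. These chaperones serve many other secretory proteins. Under largazole the proteasome activator Psme3 and the cytosolic peptidase Thop1 were lower in KD cells as well, and in KD cells Canx, Pdia3 and Psme3 were lower with the drug than in DMSO. The Psme3 call for the drug was lost with library totals, no filter, DESeq2 and only the libraries compared, with the log2 fold change between -0.21 and -0.15, and both Psme3 calls were lost without any 1 of the 4 parental or 2 KD DMSO libraries. Thop1 under largazole was lost without any 1 of the parental libraries, and Canx in DMSO without any 1 of the parental or KD DMSO libraries.

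Of 30 regulators 29 were tested. Under largazole 2 rose and 9 fell in KD cells, with a median log2 fold change of -0.05, and 4 rose and 9 fell in parental cells, with a median of -0.14, beside the same 24.6% higher and 23.1% lower of all tested genes in KD cells and 26.8% and 22.6% in parental cells. With knockdown 10 rose and 2 fell under largazole, with a median of 0.18, and 6 rose and 1 fell in DMSO, with a median of 0.14, beside 8.12% higher and 9.67% lower of all tested genes under largazole and 7.11% and 4.01% in DMSO. Nlrc5, the class I transactivator, passed in none of the comparisons, with 36.3 and 44.3 CPM in KD largazole, 39.6 and 43.3 CPM in KD DMSO, 44.1 and 46.6 CPM in parental largazole and 38.4 and 45.9 CPM in parental DMSO libraries.

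Among the regulators of interferon signalling, Stat2 and Irf9 were separated by genotype. Stat2 had 56.6 and 74.2 CPM in KD largazole and 92.9 and 70.3 CPM in KD DMSO, against 25.7 and 32.8 CPM in parental largazole and 25.1 and 26.7 CPM in parental DMSO libraries. Each KD library was above each parental library. With knockdown Stat2 rose by 1.16 ± 0.18 under largazole (edgeR adjusted p = 0.00189) and 1.66 ± 0.18 in DMSO (edgeR adjusted p = 0.000328), and Irf9, its DNA-binding partner, by 1.57 ± 0.23 (edgeR adjusted p = 0.00159) and 2.31 ± 0.25 (edgeR adjusted p = 0.00031). Irf9 had 61.9 and 33.8 CPM in the KD DMSO libraries, and replicate 1 was the higher. Stat3 rose with drug and with knockdown, and the interferon receptor chains Ifnar2 and Ifngr2 and the signalling inhibitor Socs3 rose with knockdown in both conditions. Under largazole Irf1, Relb and the SXY-binding subunits Rfx5 and Rfxank were higher in KD cells, and Nfya was lower. These 5 calls were lost with DESeq2 (adjusted p = 0.058 for Irf1, 0.0974 for Relb, 0.0587 for Rfx5, 0.131 for Rfxank and 0.0693 for Nfya), with only the libraries compared, and without any 1 of the parental libraries. The Ifngr2 and Ifnar2 calls in DMSO were lost without either parental DMSO library or KD DMSO replicate 1, and Ifngr2 also without replicate 2. Under largazole Ifngr2 was lost without parental largazole replicate 1, and Ifnar2 without either parental largazole library.

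Factors of the NF-kappaB and Polycomb families fell with the drug in both genotypes. Relb had 15.1 and 14 CPM in KD largazole libraries against 27.3 and 26.4 CPM in KD DMSO libraries, and 11 and 10.3 CPM in parental largazole against 25.5 and 27.9 CPM in parental DMSO libraries. Nfkb1 and Rela fell as well, and so did the CCAAT-binding subunits Nfyb and Nfyc. The Nfyb call was lost in parental cells without parental DMSO replicate 1 or either parental largazole library. In KD cells it was lost with only the libraries compared and without replicate 2 of either KD group. Ezh2, the histone methyltransferase of Polycomb complex PRC2, had 30 and 28.9 CPM in KD largazole libraries against 61.9 and 64 CPM in KD DMSO libraries, and 54.4 and 50.7 CPM in parental largazole against 85.8 and 86.4 CPM in parental DMSO libraries. It fell in all 4 comparisons, and Suz12, another PRC2 subunit, in both drug comparisons. Irf1, an activator of class I genes, rose with the drug by 0.40 ± 0.11 in KD cells (edgeR adjusted p = 0.0101) and 0.42 ± 0.11 in parental cells (edgeR adjusted p = 0.00831). The call in KD cells was lost without KD DMSO replicate 2 (0.370). That in parental cells was lost without parental DMSO replicate 1 (0.297) or parental largazole replicate 1 (0.367). Irf8 fell with the drug in both genotypes. In parental cells Irf9 and Tyk2 rose and Ifngr2 fell with the drug, and in KD cells the PRC2 subunit Eed fell. The calls of Irf9, Tyk2 and Ifngr2 were lost without any 1 of the 4 parental libraries, and those of Tyk2, Ifngr2 and Eed also with DESeq2. Eed was lost as well without either KD DMSO library, Rela in parental cells without any 1 of the 4 parental libraries, and Ezh2 for KD in DMSO without any 1 of the 4 DMSO libraries.

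**Figure D4:**
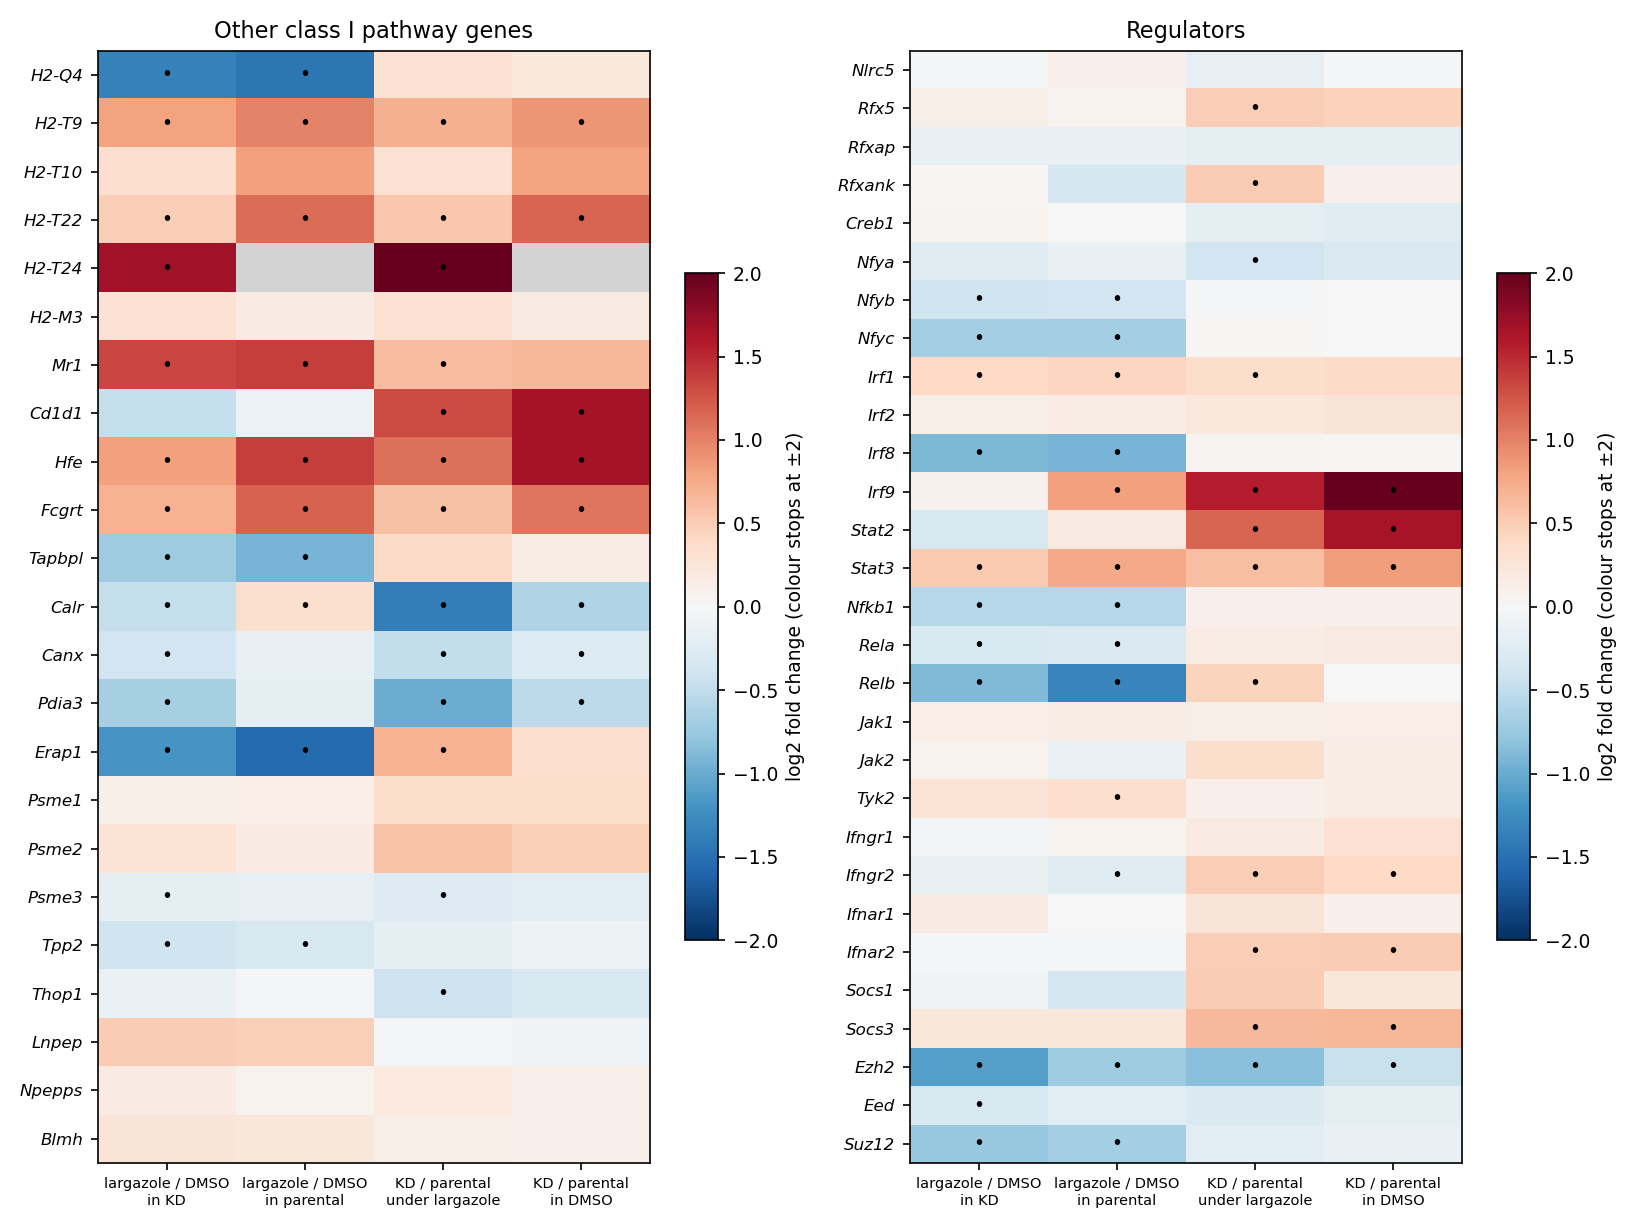
Log2 fold changes (colour, stopped at 2 either way) of the tested genes of the other class I pathway list (left) and of the regulators (right) in the 4 comparisons (columns); dots mark an adjusted p under 0.05 (edgeR), and grey cells have a group with at most 3 counts. Stat2 and Irf9 are red in the KD columns, and Erap1, H2-Q4, Relb and Suz12 blue in the largazole columns.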

How the data were processed

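Poly(A)-selected RNA of 8 libraries, 2 in each of 4 groups, was made into directional libraries after column purification, per the labels' protocols. The build was mm10, per the submitters' processing notes. What aligned and counted the reads, with which strand setting and annotation, is not given in the sources used here. Expected counts per gene symbol were deposited, not normalized by the authors, and were rounded to whole numbers here. Totals were 13020492 to 15613216 per library, and 27 genes with symbols turned to dates could not be named.

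Tests were two-sided quasi-likelihood F tests of edgeR 4.0.16, after filterByExpr with a minimum count of 10 and a minimum total of 15, scaled by TMM, on all 8 libraries with 1 mean per group. P-values were adjusted over 12517 genes by the Benjamini-Hochberg method, at 0.05. The absolute log2 fold change over the square root of F gave the SE. The common biological coefficient of variation was 0.0946. The self-test on simulated data ran the same code. Exon lengths and positions came from GENCODE M21 on GRCm38, the assembly of mm10, and promoters from RefSeq GRCm38.p6.

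The alternatives were RLE scaling, library totals, no filter, DESeq2 1.42.0, a fit of only the libraries compared, the replicate number as a block, each library left out, and ratios with no length. Leaving out a library leaves 1 in its group, which is assumed to vary like the others. Software was R 4.3.3, matplotlib 3.10.9 and Python 3.11.15. The genes and lists were chosen with earlier results of these data known, and 1 gene of the regulator list is not reported here or counted in it. The genes to name were all 10 members, those of the lists that passed, and for H2-K1, B2m, Tap1 and Psmb8 the 3 nearest profiles among genes of at least 5 CPM on average, with a prior count of 2. Counting error mattered most for Psmb9, with 19 to 88 counts.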

Additional observations from a re-analysis of the deposited data

Results flagged for a closer look

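Calr, the loading chaperone calreticulin, differed between genotypes in its response to largazole. It had 1099 and 941 CPM in KD largazole libraries against 1443 and 1393 CPM in KD DMSO libraries, and 2734 and 2604 CPM in parental largazole against 2223 and 2071 CPM in parental DMSO libraries. Its log2 fold change for largazole was -0.47 ± 0.09 in KD cells and 0.31 ± 0.09 in parental cells, with no overlap in either. The difference between the responses was -0.79 ± 0.13 (edgeR adjusted p = 0.0498). It lay between -0.90 and -0.67 when a library was left out. The call was lost with RLE scaling and without any 1 of the parental or KD DMSO libraries, and it held with DESeq2. Its cause was not tested.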

How the results depend on the processing

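With all libraries kept, no class I gene that passed turned direction, and the calls lost were Tap1 under largazole in parental cells (library totals, DESeq2) and Tap2 in KD cells for the drug and under largazole for the knockdown (only the libraries compared). Reversed values were B2m in parental cells with no filter (-0.004) and, with library totals, Psmb8 (0.033) and Nlrc5 (0.018) in KD cells. Counts over all genes moved to 3248 for KD in DMSO and 957 for KD under largazole with only the libraries compared (1392 and 2227 reported), and for the difference between responses to 114 with no filter, 84 with DESeq2 and 119 with the replicate block (29 reported). Among regulators, KD under largazole called 12 genes with edgeR and 7 with DESeq2. Scaling moved the median of all genes by less than 0.1. With no length, the immunoproteasome ratio was 0.114 in KD largazole, 0.143 in KD DMSO, 0.0586 in parental largazole and 0.0702 in parental DMSO cells.

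Leaving out 1 library gave 5 to 9 class I genes for largazole in KD cells, 6 to 8 in parental cells, 3 to 9 for KD under largazole, 2 to 8 for KD in DMSO and 0 to 1 for the difference. All-gene counts were 4293 to 7036, 4223 to 7796, 812 to 4121, 418 to 3016 and 2 to 544 in the same order. Log2 fold changes that crossed 0 were B2m under largazole in KD cells (-0.007 to 0.471) and parental cells (-0.021 to 0.034), Psmb8 under largazole in KD cells (-0.318 to 0.236), H2-K1 for KD under largazole (-0.111 to 0.206) and in DMSO (-0.026 to 0.270), and H2-D1 for the same (-0.002 to 0.303, -0.052 to 0.206). Nlrc5 crossed 0 under largazole in KD (-0.194 to 0.092) and parental cells (-0.035 to 0.227) and for KD in DMSO (-0.159 to 0.103). For the difference between responses the ranges were -0.245 to 0.083 for H2-K1, -0.088 to 0.227 for H2-D1, -0.689 to 0.011 for H2-T23, -0.025 to 0.464 for B2m, -0.372 to 0.014 for Tap1, -0.321 to 0.019 for Tap2, -0.294 to 0.106 for Tapbp, -0.425 to 0.137 for Psmb8 and -0.282 to 0.002 for Nlrc5. The causes were not tested.

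Replicate numbers were not taken as pairs, since the labels do not say that they mark a shared batch: deviations of same-numbered libraries correlated by 0.146 to 0.364 in 4 of the 6 pairs of groups, and by 0.002 and -0.008 in the other two, both with parental DMSO. With the replicate block 9 class I genes passed for largazole in KD cells, 8 in parental cells, 7 for KD under largazole, 6 for KD in DMSO and 0 for the difference. B2m was among those gained, for largazole in KD cells (0.248) and for KD under largazole (0.421).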

Other observations

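Genes of the MHC class II pathway, which presents peptides from outside the cell and is usually limited to antigen-presenting cells, were mostly near 0 in DMSO, and some were detected under largazole. Of 11 genes 4 were tested, and Cd74, H2-DMa and H2-DMb1 were called higher under largazole in both genotypes. Over all tested genes 24.6% were called higher in KD cells and 26.8% in parental cells. Cd74 and H2-DMb1 passed the filter on low counts only through their largazole libraries, so the filter favoured such a call. In parental DMSO cells H2-DMb1 had a mean of 0.239 CPM. Its call in parental cells was lost without parental DMSO replicate 1 (log2 fold change 1.415) or parental largazole replicate 1 (1.648). Cd74, the invariant chain, had 64 and 58 counts in KD largazole libraries against 0 and 1 counts in KD DMSO libraries, and 33 and 43 counts in parental largazole against 1 and 1 counts in parental DMSO libraries. H2-DMa, a chain of the peptide exchange factor H2-DM, had 7.79 and 5.26 CPM in KD largazole libraries against 0.724 and 0.589 CPM in KD DMSO libraries, and 11.4 and 11 CPM in parental largazole against 1.26 and 0.337 CPM in parental DMSO libraries. Ifi30, the lysosomal thiol reductase, was the exception, with 26 and 17.7 CPM in KD largazole, 22.3 and 14 CPM in KD DMSO, 23 and 20 CPM in parental largazole and 15.5 and 15.8 CPM in parental DMSO libraries, and was called in no comparison. No class II gene was called between KD and parental cells with edgeR or DESeq2, and 2 of the 4 had an unadjusted p under 0.05 under largazole and 0 in DMSO. The antigen-presenting chains H2-Aa, H2-Ab1 and H2-Eb1 stayed at or under 0.39 CPM in all libraries. Ciita, the class II transactivator, had 2 and 7 counts in the KD largazole libraries and 0 in the other 6 libraries. Ptprc and the other defining leukocyte markers are given above, and their part in these values was not tested.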
